A study of Mus musculus with 12 samples.

Results

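Genes of cartilage and bone formation were followed in the mouse abdominal aorta, namely Sox9, Runx2, Acan, Chad, Cilp, Cytl1, Mgp, Alpl, Ibsp and Bglap. They were chosen by name, with earlier results of these data known. All 10 were found among the 55092 features of the expression table, and 8 of the 10 passed the filter on low values. The study asked how loss of CCN2, a matricellular protein also called connective tissue growth factor, in smooth muscle cells (SMCs) alters the aorta during aneurysm formation. RNA-Seq of poly(A) RNA was performed in 4 groups of 3 male mice, with 1 library per mouse: CCN2fl/fl mice given saline (CFS), CCN2SMC∆ mice given saline (CSS), CCN2fl/fl mice given Ang II (CFA) and CCN2SMC∆ mice given Ang II (CSA). Values are FPKM, fragments scaled by gene length and library size, so that levels of different genes can be set side by side.

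CCN2SMC∆ mice carried floxed Ccn2 alleles and Myh11-Cre-ERT2, a tamoxifen-inducible Cre driven by the promoter of a smooth muscle myosin, so that the deletion is aimed at SMCs and other aortic cells keep the gene. CCN2fl/fl mice carried the same floxed alleles without Cre, and effects of Cre itself and of the deletion therefore cannot be told apart. Mice of all 4 groups received 5 doses of tamoxifen at 8 weeks of age, followed by a washout of 2 weeks. Mini-osmotic pumps then delivered saline or Ang II, a vasoconstrictor peptide used to provoke aneurysms, at 500 ng/kg/min for 7 days. The labels give each mouse its own number and do not say whether any were littermates. In whole-tissue RNA, fewer cells of a type and less RNA per cell cannot be told apart.

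SMCs of the diseased artery wall can lose contractile proteins and switch on genes of the skeletal lineages. SOX9 is the transcription factor that starts cartilage formation, and RUNX2 drives osteoblast differentiation and the late maturation of chondrocytes. Downstream of them lie the cartilage proteins aggrecan (Acan), chondroadherin (Chad) and cartilage intermediate layer protein (Cilp), the bone proteins bone sialoprotein (Ibsp) and osteocalcin (Bglap), and a balance between alkaline phosphatase (Alpl), which removes an inhibitor of mineral deposition, and matrix Gla protein (Mgp), which protects arteries from calcification. Cytl1 encodes a small secreted protein first linked to cartilage formation.

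Promoter sequences are shown for Runx2, Chad and Cytl1, the 3 genes that differed most between CSA and CFA, and for Acan, whose level varied between mice of one group. Each is the 250 bases before the transcription start, 5′ to 3′ on the gene's strand, from RefSeq on GRCm38.p6, and the capitals mark a match to a searched motif. The Runx2 window lies at chr17:44814628-44814877 on the minus strand, that of Acan at chr7:79052976-79053225, that of Chad at chr11:94564797-94565046 and that of Cytl1 at chr5:37735269-37735518, the last 3 on the plus strand.
Runx2: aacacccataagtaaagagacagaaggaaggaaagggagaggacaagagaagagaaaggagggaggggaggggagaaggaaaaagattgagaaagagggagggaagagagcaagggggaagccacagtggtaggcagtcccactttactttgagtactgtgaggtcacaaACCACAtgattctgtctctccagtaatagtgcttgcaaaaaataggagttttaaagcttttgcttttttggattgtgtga
Acan: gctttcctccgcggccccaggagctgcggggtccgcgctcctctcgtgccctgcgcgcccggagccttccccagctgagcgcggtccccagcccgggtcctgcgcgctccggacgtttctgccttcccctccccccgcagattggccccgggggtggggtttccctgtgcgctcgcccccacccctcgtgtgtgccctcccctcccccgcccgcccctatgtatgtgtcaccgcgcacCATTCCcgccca
Chad: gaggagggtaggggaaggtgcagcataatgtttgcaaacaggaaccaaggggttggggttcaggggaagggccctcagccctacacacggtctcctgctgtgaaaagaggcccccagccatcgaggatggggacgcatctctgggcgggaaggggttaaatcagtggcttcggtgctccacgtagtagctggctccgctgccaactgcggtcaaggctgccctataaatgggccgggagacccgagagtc
Cytl1: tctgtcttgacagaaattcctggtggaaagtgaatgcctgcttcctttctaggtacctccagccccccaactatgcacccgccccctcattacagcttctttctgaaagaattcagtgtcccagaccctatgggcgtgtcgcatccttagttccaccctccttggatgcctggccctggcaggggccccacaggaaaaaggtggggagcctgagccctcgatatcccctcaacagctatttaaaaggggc

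Both strands were searched for the RUNX motif TGTGGT, the SOX motifs ACAAAG and AACAAT, the TEAD motif GGAATG and the CArG box of smooth muscle genes, and no pair of these matches overlapped in the windows shown. In Runx2 the RUNX motif lay on the opposite strand with its edge 80 bases before the start. In Acan the TEAD motif lay on the opposite strand 12 bases before the start. Neither Chad nor Cytl1 held any of these letters in its window, which says nothing about the factors themselves. Of the 32851 promoters searched over the same length, 14% held the RUNX motif, 24% a SOX motif, 12.6% the TEAD motif and 1.47% a CArG box. Promoters of 8 of the 10 genes were in the table. The RUNX motif was also found in Bglap (132 bases before the start) and Cilp (205 bases before the start), and Alpl held SOX motifs in both of its promoters.

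The targeted gene was examined first. Ccn2 stood at 709.5, 1108 and 480.1 FPKM in CFS and at 436, 639.9 and 587 FPKM in CSS. Under Ang II it stood at 1013, 1105 and 564 FPKM in CFA and at 255, 331 and 399 FPKM in CSA. The saline groups overlapped (log2 fold change -0.40, limma adjusted p = 1), whereas every CSA mouse lay below every CFA mouse (log2 fold change -1.41, SE 0.34, limma adjusted p = 0.00622). Of the exonic bases of Ccn2, 23.2% are shared with the antisense gene Gm15270. The recovered depth ran from 14558580 to 23107807 fragments per library, and CSA 03 was the shallowest and listed 65.7% of the features at 0, against 55.1% to 61.5% in the other 11 libraries. It listed 273 features at 1 fragment, against 1132 to 2437 in the others, so that a value of 0 or near 0 may not mean the same in CSA 03 as elsewhere. CFS 69 stood apart by a summed FPKM of 8 endothelial markers of 127, against 449 and 448 in the other CFS mice. Among the saline mice, skeletal muscle markers summed to 172 FPKM in CFS 68 and 279.6 FPKM in CSS 55, against at most 6.11 FPKM in the other 10 libraries, and adipocyte markers summed to 2903 FPKM in CFS 70, against 666 and 774 FPKM in the other CFS mice. The part of these in the saline comparisons was not tested. Values without CSA 03 or CFS 69 stand beside the calls among the 10 genes between CSA and CFA, and where leaving one of them out ended a call or changed a sign. The 8 SMC markers summed to 5532 to 10305 FPKM in CFS, CSS and CFA, as the aortic label implies, and to 799.8 to 959 FPKM in CSA, where all 8 were lower than in CFA. Macrophage markers summed to 1511 to 1727 FPKM in CSA and to 151 to 462 FPKM in the other groups. Neutrophil markers summed to 519 to 566 FPKM in CSA and to at most 28 FPKM elsewhere. Adipocyte markers summed to 93.2 to 298 FPKM in CSA and to 309.6 to 913 FPKM in CFA, with 4 of 8 called lower (8.27% of all tested features). The part of these shifts in the results on CSA was not tested.

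**Figure D1:**
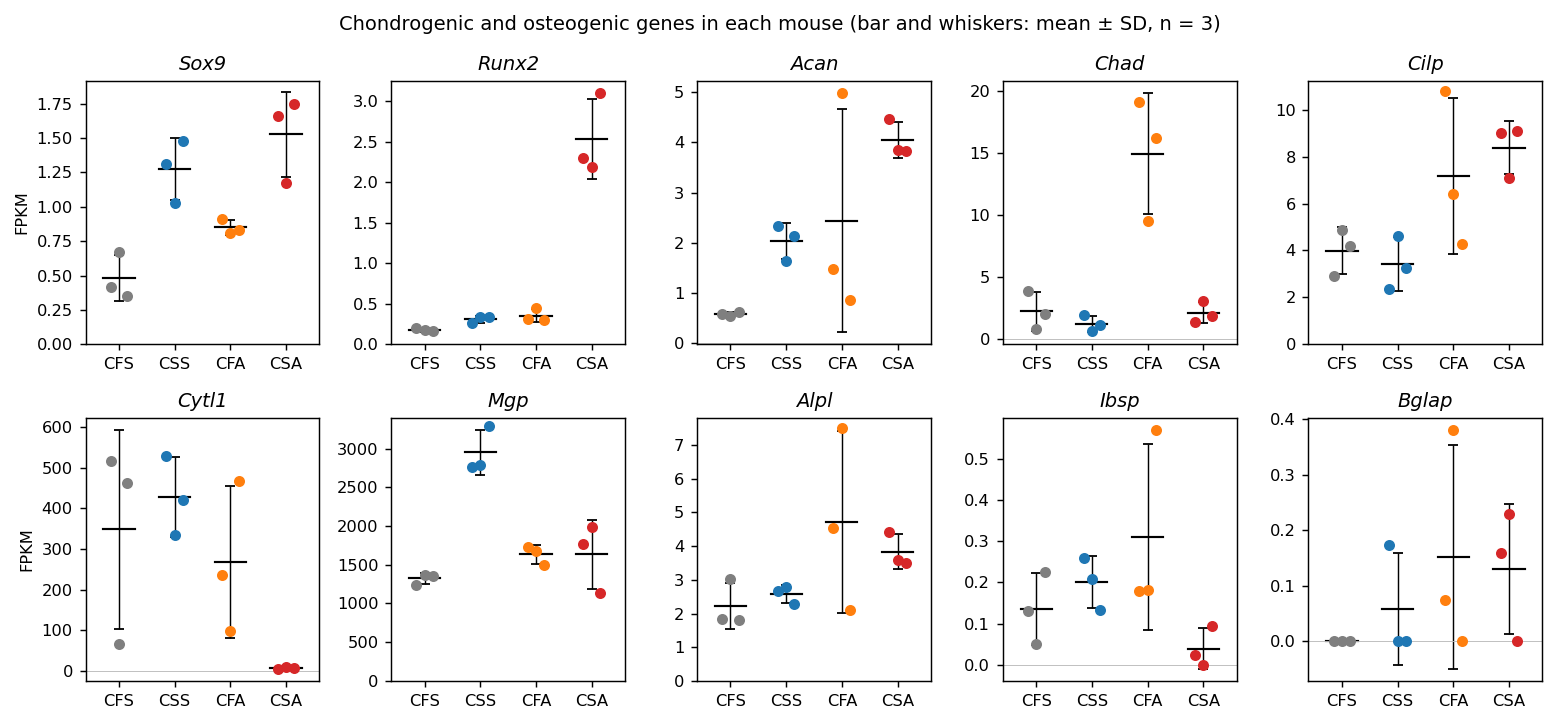
FPKM of the 10 genes (linear axes, 1 panel per gene) in each of the 12 mice; points are mice, the horizontal bar is the group mean and whiskers are the SD (n = 3). Runx2 stands at 2.19 to 3.1 FPKM in CSA and at or below 0.443 in all other mice, Cytl1 stands at 5.13 to 10.2 FPKM in CSA only, Chad is highest in CFA, and Mgp is highest in CSS.

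Between CSA and CFA, the comparison of genotypes under Ang II, 3 of the 10 genes passed both thresholds. These are a limma adjusted p below 0.05 together with a log2 fold change above 1.5 or below -1.5. Runx2 rose, and Chad and Cytl1 fell. Over all 14676 features tested, 17.2% were called in this comparison (8.95% higher and 8.27% lower). The 8 tested genes had a median log2 fold change of 0.14, beside -0.04 over all tested features. The chondrogenic and osteogenic genes thus did not move one way, with 4 of the 8 above 0. Runx2 and Sox9 lay above CFA without overlap, as did 23.4% of all tested features, and Chad, Cytl1 and the untested Ibsp lay below it, as did 25.1%. Runx2 entered the test only through its CSA libraries, and Sox9 only through CSS and CSA, so the count over tested genes is a description.

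Runx2 (ENSMUSG00000039153, chr17:44495987-44814797, minus strand) was low outside CSA. It measured 0.202, 0.175 and 0.157 FPKM in CFS and 0.256, 0.336 and 0.333 FPKM in CSS. Under Ang II it measured 0.312, 0.443 and 0.304 FPKM in CFA and 2.3, 2.19 and 3.1 FPKM in CSA. All 3 CSA mice were above all other mice, and the order of the groups was CFS, CSS, CFA and CSA, of which CSS and CFA overlapped. The values rest on 24 to 83 fragments per library outside CSA and on 410 to 420 in CSA.

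Runx2 was 7.17-fold higher in CSA than in CFA by the means (2.53 ± 0.499 against 0.353 ± 0.0778 FPKM, SD, n = 3 each). The log2 fold change was 2.53 (SE 0.31, limma adjusted p = 9.39e-05). Without CSA 03 it was 2.38 (limma adjusted p = 3.14e-04). The call ended with a pseudocount of 1, where the log2 fold change was 1.38, and when limma's treat tested the fold limit itself (adjusted p = 0.0558). The CSA mice also had the highest macrophage sums, 1511, 1553 and 1727 FPKM, and their part in the level of Runx2 was not tested. Against CSS the log2 fold change was 2.68 (SE 0.31, limma adjusted p = 4.59e-05). Under saline CSS lay above CFS without overlap, but the log2 fold change of 0.55 (SE 0.31) did not pass the test (limma adjusted p = 0.915). The genotype effect under Ang II exceeded that under saline by 1.98 on the log2 scale (SE 0.45, limma adjusted p = 0.00746). Of the exonic bases of Runx2, 5.87% are shared with the antisense gene Runx2os1, whose reads cannot be told apart without strand.

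Sox9 (ENSMUSG00000000567, chr11:112782224-112787760) was higher in CCN2SMC∆ than in CCN2fl/fl mice under either infusion, but neither difference passed the test. It measured 0.419, 0.672 and 0.351 FPKM in CFS and 1.31, 1.03 and 1.48 FPKM in CSS. It measured 0.91, 0.809 and 0.833 FPKM in CFA and 1.66, 1.17 and 1.75 FPKM in CSA. The groups of the 2 genotypes did not overlap under saline or under Ang II, while CSS and CSA overlapped. The difference between CSS and CFS was 1.27 on the log2 scale (SE 0.28) with an unadjusted p of 8.97e-04 and an adjusted p of 0.289 by limma. Between CSA and CFA it was 0.76 (SE 0.28, limma adjusted p = 0.0506), with 4 of 15 alternative analyses under 0.05 and a range of adjusted p from 0.0214 to 1. The genotype effects under the 2 infusions differed by -0.51 (95% interval -1.38 to 0.36, limma adjusted p = 0.384).

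Acan (ENSMUSG00000030607, chr7:79053483-79115099) encodes aggrecan, the large proteoglycan that gives cartilage its resistance to compression. It measured 0.594, 0.537 and 0.629 FPKM in CFS and 2.33, 1.63 and 2.14 FPKM in CSS. It measured 1.47, 4.98 and 0.872 FPKM in CFA and 4.46, 3.84 and 3.83 FPKM in CSA. CFS was the lowest group without overlap with any other, and the CFA mice spanned from below all CSS mice to above all CSA mice. The log2 fold changes were 1.62 between CSS and CFS (SE 0.47, limma adjusted p = 0.474), 1.53 between CFA and CFS (limma adjusted p = 0.278, and 0.85 with an adjusted p of 0.46 without CFA 72) and 1.06 between CSA and CFA (limma adjusted p = 0.0929).

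The comparison of CSA with CFA depended on single CFA mice. Without CFA 72, the mouse at 4.98 FPKM, the log2 fold change of Acan was 1.74 (limma adjusted p = 4.51e-04) and passed both thresholds. Without CFA 74 it was 0.55 (limma adjusted p = 0.338). CFA 72 also held the highest macrophage sum of the CFA mice, at 462 FPKM against 251 and 234, and the highest neutrophil sum, at 28 FPKM against 22.1 and 11.1. The part of these in the level of Acan was not tested.

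Chad (ENSMUSG00000039084, chr11:94565047-94569127), a leucine-rich repeat protein of cartilage matrix that binds collagen, was high in CFA alone among the 4 groups. It measured 3.86, 0.795 and 2 FPKM in CFS and 1.92, 0.61 and 1.09 FPKM in CSS. It measured 19.1, 9.54 and 16.2 FPKM in CFA and 1.41, 3.06 and 1.86 FPKM in CSA. Every CFA mouse was above every other mouse, and the other 3 groups overlapped one another. Chad was 7.08-fold lower in CSA than in CFA by the means, with a log2 fold change of -2.78 (SE 0.55, limma adjusted p = 0.00194) and of -2.73 without CSA 03 (limma adjusted p = 0.00579). The call ended when treat tested the fold limit (adjusted p = 0.215). The opposite step, from CFS to CFA, was 2.89 (SE 0.55), and its limma adjusted p of 0.103 did not pass (unadjusted p = 2.77e-04). The comparisons share the CFA mice. The effect of genotype with Ang II and that with saline differed by -2.07 (SE 0.77, limma adjusted p = 0.0721).

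Cilp (ENSMUSG00000042254, chr9:65265180-65280605), which encodes a matrix protein of the cartilage intermediate layer, was higher under Ang II than under saline in CCN2SMC∆ mice. It measured 2.89, 4.87 and 4.21 FPKM in CFS and 2.34, 4.62 and 3.26 FPKM in CSS. It measured 10.8, 6.42 and 4.26 FPKM in CFA and 9, 7.08 and 9.09 FPKM in CSA. CSA lay above CSS without overlap, while CFA overlapped with CFS and with CSA. The log2 fold change between CSA and CSS was 1.32 (SE 0.34, limma adjusted p = 0.00785), short of the fold limit. Between CSA and CFA it was 0.32 (95% interval -0.42 to 1.06, limma adjusted p = 0.48).

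Cytl1 (ENSMUSG00000062329, chr5:37735519-37739820) showed the largest fitted change of the 8 tested genes in both comparisons with CSA. It measured 516, 67.6 and 462 FPKM in CFS and 529, 334 and 419.8 FPKM in CSS. It measured 236, 98.3 and 468 FPKM in CFA and 5.13, 10.2 and 8.34 FPKM in CSA. CFS, CSS and CFA overlapped, and every CSA mouse was below every other mouse. The means were 33.9-fold lower in CSA than in CFA (7.88 ± 2.56 against 268 ± 187 FPKM, SD, n = 3 each). The log2 fold change was -4.85 (SE 0.74, limma adjusted p = 3.78e-04). Without CSA 03 it was -4.92 (limma adjusted p = 0.00121). Against CSS it was -5.77 (SE 0.74, limma adjusted p = 8.92e-05), and the genotype effect under Ang II was lower than that under saline by 5.58 on the log2 scale (log2 difference -5.58, SE 1.05, limma adjusted p = 0.00284). Without CFS 69 that difference was -4.63 (limma adjusted p = 0.00178).

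The low Cytl1 values outside CSA were in mice with a low sum of endothelial markers. Not every marker followed the sum in CFA 72. Erg stood there at 45.7 FPKM, against 45.2 and 34.4 FPKM in the other CFA mice. Kdr stood at 3.67 FPKM, against 2.45 and 5.36 FPKM, while each remaining marker was lowest in CFA 72. CFS 69, at 67.6 FPKM of Cytl1, had an endothelial marker sum of 127 FPKM, and CFA 72, at 98.3 FPKM, had 257 FPKM, while the other 7 CFS, CSS and CFA mice ranged from 365 to 496 FPKM. In CSA the endothelial sum was 194, 161 and 156 FPKM, and 3 of the 8 endothelial markers were called lower than in CFA (8.27% of all tested features). These were Pecam1 (log2 fold change -1.84), Vwf (-2.36) and Tek (-1.89), while the other 5 were not called, and Kdr stood at 0.92. Cytl1 was 2.64% to 6.31% of the endothelial sum in CSA, 53.3% in CFS 69, 38.3% in CFA 72 and 63.1% to 115% in the other mice. The part of endothelial cells in the level of Cytl1 was not tested. CFS 69 set the sign of the saline comparison: the log2 fold change of Cytl1 between CSS and CFS was 0.73 (limma adjusted p = 1) with it and -0.22 (limma adjusted p = 1) without it.

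**Figure D2:**
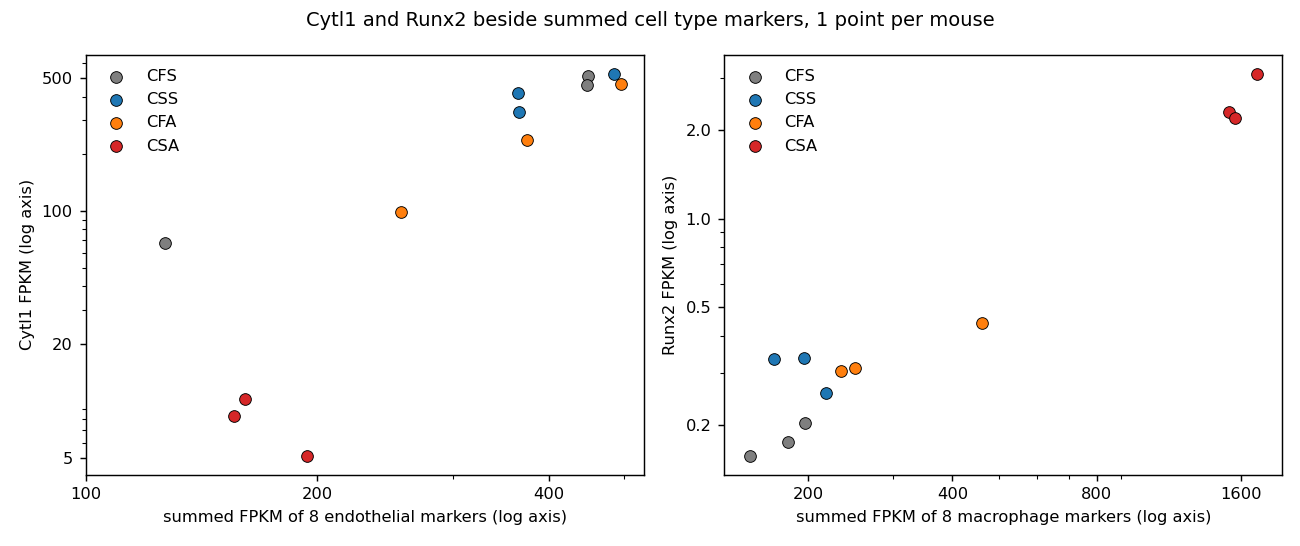
Left, Cytl1 FPKM against the summed FPKM of 8 endothelial markers; right, Runx2 FPKM against the summed FPKM of 8 macrophage markers; 1 point per mouse, colored by group, all axes logarithmic. The CSA mice lie at 5.13 to 10.2 FPKM of Cytl1 with endothelial sums of 156 to 194 FPKM, below CFS 69, which has 67.6 FPKM of Cytl1 at an endothelial sum of 127 FPKM, and on the right they lie apart from all others on both axes.

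Mgp (ENSMUSG00000030218, chr6:136872435-136875823, minus strand) was the most abundant of the 10 genes in every group, at 1134 FPKM or more in all mice. It measured 1244, 1366 and 1360 FPKM in CFS and 2765, 2794 and 3290 FPKM in CSS. It measured 1723, 1677 and 1498 FPKM in CFA and 1773, 1992 and 1134 FPKM in CSA. The 3 CSS mice were above all 9 others, and CFA and CSA overlapped around the same mean of 1633 FPKM. Under saline Mgp was 2.23-fold higher in CSS than in CFS (log2 fold change 1.15, SE 0.19). This difference ranked 10 of 14676 by p (unadjusted p = 9.87e-05) and had a limma adjusted p of 0.133. The adjusted p passed 0.05 in 3 of 16 alternative analyses, and its range was 8.03e-04 to 1.

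Ang II was followed by a lower Mgp in CCN2SMC∆ mice, with a log2 fold change between CSA and CSS of -0.89 (SE 0.19, limma adjusted p = 0.00295), short of the fold limit. Without CSA 03, the lowest CSA mouse at 1134 FPKM, it was -0.65 (limma adjusted p = 0.00103). The effect of genotype with Ang II and that with saline differed by -1.19 (SE 0.27, limma adjusted p = 0.00824), and by -0.95 without CSA 03 (limma adjusted p = 0.00129). Between CSA and CFA the log2 fold change was -0.04 (95% interval -0.46 to 0.39), and 0.21 without CSA 03.

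Alpl (ENSMUSG00000028766, chr4:137741733-137796384, minus strand) showed no difference past the thresholds. It measured 1.85, 3.02 and 1.8 FPKM in CFS and 2.67, 2.8 and 2.29 FPKM in CSS. It measured 4.54, 7.51 and 2.11 FPKM in CFA and 4.42, 3.6 and 3.49 FPKM in CSA. CSA lay above CSS without overlap, CFA overlapped with every other group, and CFA 72 was again the highest mouse. The log2 fold change between CSA and CFA was -0.12 (95% interval -0.95 to 0.70, limma adjusted p = 0.817), and 0.29 without CFA 72 (limma adjusted p = 0.513).

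The bone matrix genes Ibsp and Bglap had no library at 1 FPKM or above and were left out of the test. Ibsp (ENSMUSG00000029306, chr5:104299171-104311469) measured 0.131, 0.0517 and 0.224 FPKM in CFS and 0.26, 0.209 and 0.133 FPKM in CSS. It measured 0.178, 0.182 and 0.57 FPKM in CFA and 0.0238, 0 and 0.0947 FPKM in CSA. In fragments these were 8, 8 and 25 in CFA and 1, 0 and 3 in CSA. The CSA mice lay below the CFA and CSS mice without overlap, in an exact permutation test whose p of 0.1 is the smallest that 3 against 3 mice allow. All CSA values were at or under the 3 fragments that a count of 0 allows, 0.0684 to 0.0947 FPKM for this gene. When all features above 0 were tested, the log2 fold change of Ibsp between CSA and CFA was -1.48 (limma adjusted p = 0.0445), short of the fold limit.

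Bglap (ENSMUSG00000074483, chr3:88383501-88384464, minus strand), the classical marker of the mature osteoblast, was listed at 0 in all 3 CFS mice. It had 2, 0 and 0 fragments in CSS, 1, 5 and 0 in CFA and 2, 3 and 0 in CSA, so that the groups overlapped and no difference was detectable at this depth. These counts are uncertain, because 50% of the 544 windows of 75 bases along its transcript occur also in Bglap2 or Bglap3, its neighboring copies.

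**Figure D3:**
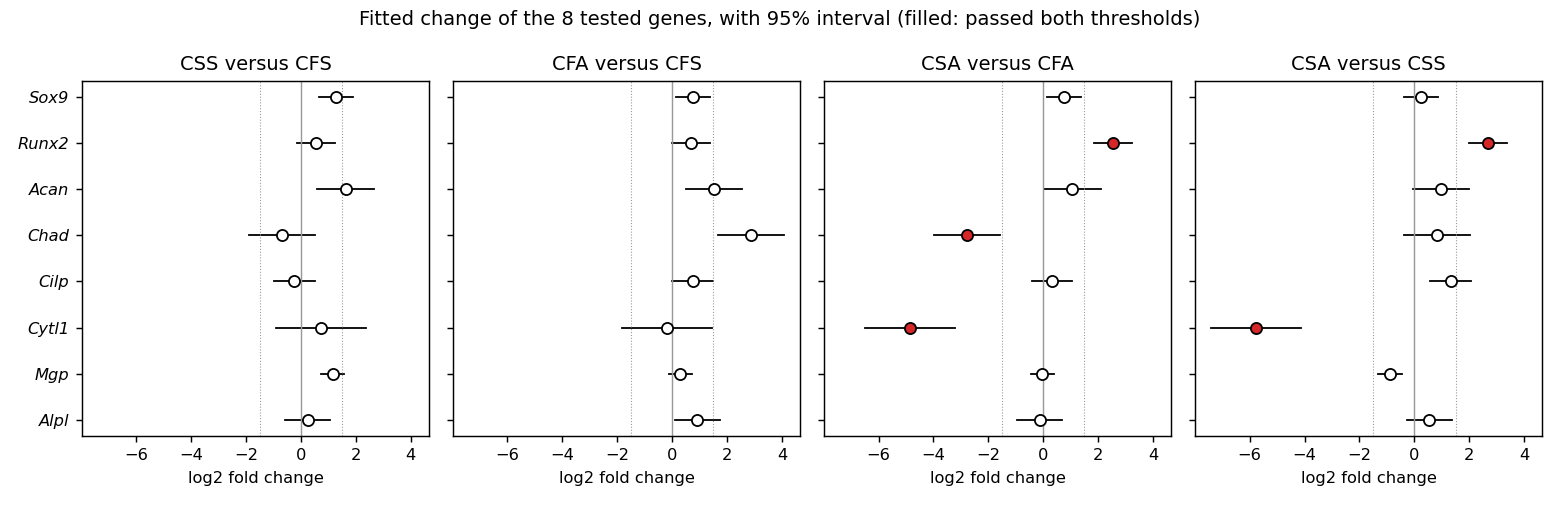
Fitted log2 fold change (x axis, log2 of FPKM + 0.1) of the 8 tested genes in 4 comparisons, with 95% intervals from limma; filled points passed both thresholds and dotted lines mark the fold limit of 1.5. Filled points are Runx2, Chad and Cytl1 between CSA and CFA and Runx2 and Cytl1 between CSA and CSS, and no point is filled in the 2 comparisons with CFS.

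Under saline, no call was made between the genotypes among the 10 genes by limma, where 0.0136% of all tested features were called. At an unadjusted p under 0.05 there were 3 of the 8 tested genes (Mgp, Sox9 and Acan, all higher in CSS), beside 6.3% of all tested features. No CFS library helped Sox9, Runx2 or Acan past the filter, which Acan passed only through CSS, CFA and CSA, so these counts and the median are descriptions. Sox9, Runx2, Acan and Mgp lay above CFS without overlap, whereas 11.1% of all tested features did so. The median log2 fold change was 0.64, beside 0.01 over all tested features.

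Ang II in CCN2fl/fl mice was likewise followed by no call by limma, where 0.0273% of all tested features were called. At an unadjusted p under 0.05 there were 5 of the 8 tested genes (Sox9, Acan, Alpl, Chad and Cilp), beside 9.42% of all tested features. Sox9, Runx2, Acan, Mgp and Chad were higher in CFA than in CFS without overlap, beside 9.44% of all tested features. The median log2 fold change was 0.76, beside -0.00 over all tested features. This comparison shares the CFS mice with the saline one, and the same limit of the filter holds for Sox9, Runx2 and Acan.

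In CCN2SMC∆ mice Ang II was followed by a rise of Runx2 and a fall of Cytl1, 2 of the 8 tested genes, beside 20.3% of all tested features called. Runx2 entered the test only through its CSA libraries, so this count is a description. Mgp and Cilp passed the adjusted p and not the fold limit, which makes 4 genes at an adjusted p below 0.05, beside 46.2% of all tested features. Runx2, Acan, Alpl and Cilp were higher in CSA than in CSS without overlap (26.3% of all tested features), and Mgp, Cytl1 and the untested Ibsp were lower (29.1%). In the test of the difference between the genotype effects, 2 of the 8 genes were called (Runx2 and Cytl1), beside 15.2% of all tested features. With Mgp, 3 passed the adjusted p alone, beside 26.4%. The same limit of the filter holds for Runx2 in these counts, which are descriptions too.

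The wider skeletal programs were examined through 3 lists that hold none of the 10 genes. Of 28 cartilage matrix and chondrocyte genes 13 were tested, and between CSA and CFA 4 were called higher and 4 lower, with a median log2 fold change of -0.84, where 8.95% of all tested features were called higher and 8.27% lower. Of the 4 called higher, Col10a1, Col11a1 and Matn3 entered the test only through their CSA libraries. Prg4 also needed them, since outside CSA it reached 1 FPKM only in CSS 56 (1.04) and CFA 72 (3.78). The count of 4 higher is therefore a description. The counts were 2 higher and 1 lower with a pseudocount of 1, and 1 and 2 with treat. They were 0 and 0 by limma at a mean FPKM of at least 5. None of the called genes reached that mean, so none was tested there and these zeros say nothing about the calls. Col11a1, a fibrillar collagen of cartilage, measured 0.303, 0.581 and 0.37 FPKM in CFA and 9.32, 10.1 and 14.8 FPKM in CSA, without overlap. Its log2 fold change was 4.48 (SE 0.41, limma adjusted p = 1.27e-05). Prg4, which encodes the joint lubricant lubricin, measured 0.783, 3.78 and 0.716 FPKM in CFA and 11.6, 10.1 and 19 FPKM in CSA (log2 fold change 3.22, limma adjusted p = 6.16e-04). The call on Prg4 ended when limma's treat tested the fold limit (adjusted p = 0.0591).

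Sox6, the partner factor of SOX9 in chondrocytes, moved the other way, at 2.74, 2.14 and 2.15 FPKM in CFA and 0.196, 0.137 and 0.0616 FPKM in CSA. Its log2 fold change was -3.43 (SE 0.24, limma adjusted p = 2.06e-06), and the groups did not overlap. Among the defining chondrocyte genes, Col2a1 stood at 0 to 0.0646 FPKM outside CSA and at 1.5, 1.47 and 0.621 FPKM in CSA, and was not tested because it reached 1 FPKM in too few libraries. Col9a2 and Col9a3, also untested, had means of 0.0299 and 0.243 FPKM in CFA and of 0.441 and 0.737 FPKM in CSA. For Col9a2 the groups did not overlap, whereas for Col9a3 they did (0.416 FPKM in CFA 74 and 0.288 FPKM in CSA 03). Comp, a cartilage matrix protein also made elsewhere, had a mean of 14.2 FPKM in CFA and 33.5 FPKM in CSA (log2 fold change 1.19, limma adjusted p = 9.04e-04), short of the fold limit. At the adjusted p alone 12 of the 13 tested genes of this list passed, 7 of them lower in CSA, beside 40.7% of all tested features. Col9a1 and Matn1 were at or below 0.204 and 0.118 FPKM in all mice, and Clec3a was listed at 0 in all 12.

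Of 22 osteoblast and bone matrix genes 12 were tested, and between CSA and CFA 2 were called higher and 5 lower (8.95% and 8.27% of all tested features), with a median log2 fold change of -0.17. The 5 lower were 4 without CSA 03, 3 with a pseudocount of 1 or at a mean FPKM of at least 5, and 2 with treat. Where the mean had to reach 5, not all of the 5 were tested, and Phex was left out. Spp1 encodes osteopontin, which macrophages also make. It measured 9.22, 44.6 and 6.3 FPKM in CFA and 368, 430.3 and 589 FPKM in CSA (log2 fold change 5.03, SE 0.66, limma adjusted p = 1.32e-04). The rise in CSA went with the macrophage sum given above, whose part was not tested. Sost, which encodes the Wnt inhibitor sclerostin, measured 340.2, 298 and 122 FPKM in CFA and 9.32, 7.16 and 0.379 FPKM in CSA. Its log2 fold change was -6.17 (SE 0.90, limma adjusted p = 2.77e-04), and -4.80 without CSA 03 (limma adjusted p = 9.68e-06), the mouse at 0.379 FPKM. Phex, an endopeptidase of phosphate homeostasis, fell as well (log2 fold change -3.14, limma adjusted p = 4.95e-06). The call on Phex ended with a pseudocount of 1, where the log2 fold change was -1.06. The osteoblast factor Sp7 was at or below 0.398 FPKM in all mice, and the osteocyte gene Mepe was listed at 0 in all 12.

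Of 18 mineralization control genes 16 were tested, and between CSA and CFA 0 were called higher and 2 lower by limma, near the 8.27% of all tested features called lower. At the adjusted p alone 8 passed, 1 higher and 7 lower, beside 40.7% of all tested features, and the median log2 fold change was -0.37. Smpd3, a sphingomyelinase needed for bone mineralization, had a log2 fold change of -1.69 (limma adjusted p = 0.00957). Its call was lost with a pseudocount of 1 (-1.38) and with treat, settings under which 0 of this list were called by limma in either direction. Tgm2, the cross-linking enzyme transglutaminase 2, had one of -1.52 (limma adjusted p = 2.11e-04), close to the fold limit. The call on Tgm2 was lost in 7 of 16 alternative analyses, with log2 fold changes of -1.25 without CSA 03, -1.48 without CFA 71, -1.32 with array weights and -1.44 with equal totals among them. Between CSS and CFS and between CFA and CFS, none of the 3 lists held a called gene, and none passed the adjusted p alone.

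**Figure D4:**
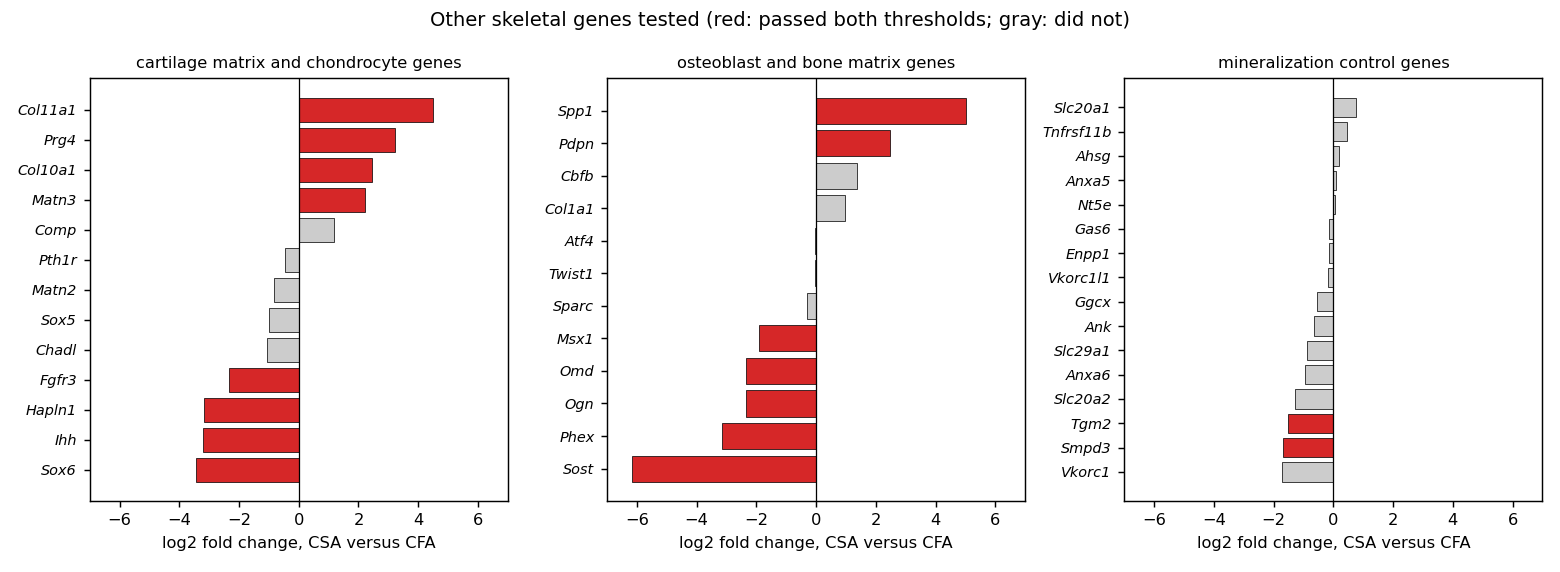
Log2 fold change between CSA and CFA (x axis) of the tested genes of 3 lists, 13 of cartilage, 12 of bone and 16 of mineralization control; red bars passed both thresholds and gray bars did not. In the first 2 lists red bars stand on both sides of 0, from 4.48 for Col11a1 to -3.43 for Sox6 and from 5.03 for Spp1 to -6.17 for Sost, and in the third the red bars are Smpd3 and Tgm2.

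Bone-resorbing cells were examined by 10 osteoclast markers. Their sum was 147 to 163 FPKM in CSA and 109 to 149.8 FPKM in CFA, with 5 tested, 1 called higher and 1 lower (8.95% and 8.27% of all tested features). Mmp9, also made by neutrophils and macrophages, was the one called higher (log2 fold change 2.52) and Itgb3 the one called lower (-1.90). Nfatc1 passed the adjusted p short of the fold limit (0.69, limma adjusted p = 0.005), and Acp5 and Ctsk did not pass it (0.59 and 0.42). Of the untested fusion genes, Ocstamp measured 0.0251, 0.18 and 0.0516 FPKM in CFA and 0.458, 0.902 and 0.375 FPKM in CSA, without overlap, and Dcstamp had means of 0.0826 and 0.325 FPKM with overlap. Calcr was at 0 in 11 of 12 libraries. Fibroblast markers summed to 1120 to 1646 FPKM in CSA and 1213 to 1302 FPKM in CFA, with 2 of 8 called lower, beside 8.27% of all tested features.

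The tested genes nearest in pattern to Runx2, Chad and Cytl1 were found on log2(FPKM + 0.1) values centered per gene, by the root mean square difference over the 12 mice. For Runx2 they were Tmem173 (0.17), Lgmn (0.19) and Ptpre (0.19), where the median over all tested features was 1.33. Lgmn measured 61, 69.6 and 42.6 FPKM in CFA and 263, 265 and 297 FPKM in CSA. For Cytl1 they were Klk11 (0.58), Klk10 (0.60) and Adra2a (0.64), with a median of 2.45. Klk10 measured 38.5, 5.61 and 47.4 FPKM in CFS and 0.143, 0.275 and 0.238 FPKM in CSA, and so shared with Cytl1 the low values of CFS 69 and CSA. For Chad they included Smpd3 (1.07) and Fcna (1.11), with a median of 1.57, so that these genes followed Chad less closely than those named for Runx2 and Cytl1 followed theirs.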

How the data were processed

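The authors deposited FPKM per gene and mouse, and the submitters' processing notes name HISAT2 2.0.5, StringTie 1.3.3b, featureCounts 1.5.0-p3 and the mm10 genome; the annotation is not given in the sources used here. Per the labels, each library is 1 mouse, and its group and number come from its title. The table has 0 unused sample columns. Symbols (54409 of 54532 Ensembl identifiers), positions and exon lengths (54495) came from GENCODE M21 on GRCm38, the same assembly as mm10. With these lengths, 98.1% to 98.5% of values under 100 fragments were whole within 0.05 fragments, which gave the depths quoted. A value of 0 allows 3 fragments, if low values were not filtered, which is uncertain for CSA 03, and such limits cover counting error only.

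In R 4.3.3 with limma 3.58.1, log2(FPKM + 0.1) was fitted with 1 coefficient per group over all 12 libraries (eBayes with trend and robust settings, no covariate) for the 14676 features that reached an FPKM of 1 in 3 or more libraries. Fold changes of low genes are understated on this scale. P-values were adjusted by Benjamini-Hochberg over all tested features, and calls required both an adjusted p below 0.05 and a log2 fold change above 1.5 in size. The fit was first tested on simulated data. A count test was not the main test because FPKM are not counts. Two-sided exact permutation tests of 3 against 3 mice cannot go below p = 0.1.

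The text names the 10 genes, Ccn2, the 3 most changed called genes of each list between CSA and CFA (2 where only 2 were called) and the 3 genes nearest in pattern to each of the 3 most changed of the 10; genes at or near 0 are named as defining markers, 1 gene that the rule selects is not reported here, and Comp, Col9a2, Col9a3, Col10a1, Matn3 and single endothelial and osteoclast markers were named, and Lgmn and Klk10 given per mouse, after their values were seen. The genes and lists were chosen with earlier results of these data known. Alternatives tried were no filter, a pseudocount of 1, a mean FPKM of at least 5, 2 scalings, eBayes without trend and robust settings, array weights, other call rules, limma's treat, only the groups compared, and leaving out each mouse, with the filter kept as set on all 12; leaving out CFS 69 and CSA 03 together was added after the data were seen. Figures and tables used Python 3.11.15, pandas 2.3.3, numpy 2.4.6, scipy 1.17.1 and matplotlib 3.10.9.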

Additional observations from a re-analysis of the deposited data

Results flagged for a closer look

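For 3 of the 8 tested genes, beside 26.4% of all tested features, the genotype effect under Ang II differed from that under saline in limma's test of the difference itself. For Cytl1 the difference was -5.58 on the log2 scale (limma adjusted p = 0.00284), with a fall in CSA and overlapping saline groups. For Runx2 it was 1.98 (limma adjusted p = 0.00746), with a rise in CSA, and the gene had passed the filter only through CSA. With a pseudocount of 1 the difference for Runx2 was 1.22, under the fold limit. For Mgp it was -1.19 (limma adjusted p = 0.00824), short of the fold limit: CSS lay above CFS in 3 of 3 mice, while CSA and CFA overlapped.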

How the results depend on the processing

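No paired analysis was possible because the groups share no mouse numbers. Over 95 alternative counts of called genes, 84 stayed within 1.5 times the main count. Between CSA and CFA, 3 calls became 1 (Cytl1) when limma's treat tested the fold limit. Between CSS and CFS, 0 became 1 (Acan) with an unadjusted p at the same fold limit, and also with only the groups compared. Between CFA and CFS, 0 became 2 (Acan and Chad) with an unadjusted p at the same fold limit and 1 with array weights (Chad). It ranged from 0 to 1 on leaving out each mouse, with Acan called without CFA 74 (2.05). The shares of all tested features called under these alternatives are not given here, so these counts are descriptions. Between CSA and CSS, 2 became 4 without a fold limit, 1 with a pseudocount of 1 and 1 at a mean FPKM of at least 5. In the test of the difference of genotype effects, 2 became 1 at a mean FPKM of at least 5 and 0 with treat. Where the mean had to reach 5, Runx2 was not tested. For the other changes the cause was not tested.

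Of 660 alternative values for single genes 14 changed sign, all of them for differences that passed no threshold. Mgp between CSA and CFA became 0.04 with equal totals, a scaling that moved the median over all tested features from -0.04 to 0.04 as well. It became 0.18 with array weights, ranged from -0.20 to 0.21 on leaving out each mouse, and was 0.21 without CFS 69 and CSA 03. Cilp there became -0.13 with array weights. Alpl there ranged from -0.60 to 0.29. Cytl1 ranged from -0.22 to 1.25 between CSS and CFS (-0.22 without CFS 69 and CSA 03) and from -1.14 to 0.40 between CFA and CFS. Without CFA 72 the differences of genotype effects became 0.12 for Acan (range -1.08 to 0.12) and 0.05 for Alpl (range -0.84 to 0.05). That for Chad passed both thresholds in 3 of 21 alternatives, a pseudocount of 1 (-1.87), without CFS 68 (-2.58) and without CSS 55 (-2.45). Without CSS 55, Cilp between CSA and CSS passed them too (1.56). On leaving out each mouse, Runx2, Chad and Cytl1 kept their calls between CSA and CFA, from 2.38 to 2.67, from -3.07 to -2.54 and from -5.44 to -4.31. With a pseudocount of 1, Runx2 stood at 1.38 there, 1.42 against CSS and 1.22 in the difference, each under the fold limit. Of the nearest 3 genes, 2 for Cytl1, 1 for Chad and 0 for Runx2 were shared with a pseudocount of 1. Depth limited Ibsp and Bglap, at most 25 fragments per library.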

Other observations

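Sox9 and Runx2, the factors at the head of the cartilage and bone programs, had their highest group means in CSA, while neither pattern was shared by all genes named for those programs. For Sox9, CSA overlapped with CSS (log2 fold change 0.24) and the difference from CFA did not pass the test (limma adjusted p = 0.0506). Sox9 had passed the filter only through CSS and CSA, and Runx2 only through CSA. Matn3, a cartilage matrix protein, measured 0.366, 0.235 and 0.0626 FPKM in CFA and 1.19, 1.06 and 1.58 FPKM in CSA (log2 fold change 2.21, limma adjusted p = 0.00397). Col10a1, the collagen of hypertrophic chondrocytes, measured 0.0147, 0.723 and 0.226 FPKM in CFA and 2.88, 1.37 and 1.08 FPKM in CSA (log2 fold change 2.47, limma adjusted p = 0.0207). For both genes CFA and CSA did not overlap, and both passed the filter only through CSA. Both calls ended with a pseudocount of 1, where Col11a1 and Prg4 were the 2 genes of the list still called higher.

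Hapln1, which links aggrecan to hyaluronan, measured 2.23, 2.01 and 2.13 FPKM in CFA and 0.125, 0.104 and 0.232 FPKM in CSA (log2 fold change -3.17, limma adjusted p = 3.19e-06). Its call ended with a pseudocount of 1, where Sox6 was the 1 gene of the cartilage list still called lower. The small proteoglycan genes Ogn and Omd had log2 fold changes of -2.36 and -2.35 (limma adjusted p = 3.03e-04 and 1.17e-04). Under saline Phex measured 1.05, 1.18 and 1.21 FPKM in CFS and 2.68, 2.92 and 2.24 FPKM in CSS, without overlap, as 11.1% of all tested features lay above CFS, and the difference did not pass the test (log2 fold change 1.12, limma adjusted p = 0.289). These genes were chosen after their values were seen.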
